A study of Mus musculus with 6 samples.

Results

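The genes described here serve protein folding, quality control and export in the endoplasmic reticulum (ER), together with the sensors and transcription factors that respond when folding there is strained. The list of 38 was set by gene symbol. A gene was represented by its brightest probe set that carries exactly 1 symbol, and it counted as detected where that probe set exceeded the array median on at least 1 array. Of the 38 genes, 36 were detected, among 12257 detected of 18194 named genes. Derl3, a channel-like protein of ER-associated degradation, lay outside the threshold at 5.39 to 6.13 log2 intensity against array medians of 6.74 to 6.85. Ern1, inside the threshold, ranged from 7.87 to 9.18. Fkbp10, a collagen-binding prolyl isomerase, had no probe set listed with 1 symbol.

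Expression was measured on Affymetrix arrays. The cells were sorted from left ventricles of Black Swiss mice, all male and 8 to 10 weeks old, that had either a sham operation or transaortic constriction (TAC), a banding of the aorta that raises the pressure load on the heart. Collection followed the surgery by 1 week. Each surgery gave 3 arrays, made from 200 ng of RNA each: Tie2cre lineage traced fibroblasts, fibroblasts outside that lineage (untraced), and endothelial cells, for which no lineage is named. Tie2-Cre acts in endothelial cells and in some blood cells, so a traced fibroblast carries a mark of past or present Tie2 expression. Neither the reporter allele nor the sorting antibodies are named in the labels. There were 3 mice per surgery, and the labels do not say whether their cells were pooled on an array or whether the arrays of 1 surgery share mice. With 1 array a group, TAC and lineage differences are described as values, and the tests that treat populations or surgeries as replicates are given once, after the fibroblast results.

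The ER receives secreted and membrane proteins as they are made, and its chaperones and disulfide isomerases fold them before coated vesicles carry them to the Golgi. When unfolded protein accumulates, the sensors IRE1, PERK and ATF6 raise chaperones and degradation factors and slow translation, a programme called the unfolded protein response. Fibroblasts, as makers of collagen, depend heavily on this machinery.

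The cell identity of the arrays bears on every comparison with endothelial cells. Over 12 fibroblast markers the median level was 13.03 to 13.35 on the fibroblast arrays, 7.83 on the endothelial sham array and 10.99 on the endothelial TAC array. Between the endothelial arrays, all 12 of these markers were higher after TAC by at least 1.5-fold and 11 by at least 2-fold. The 12 endothelial markers had medians of 13.52 and 13.17 on the endothelial arrays and of 6.36 to 7.62 on the fibroblast arrays. Of 10 cardiomyocyte markers 7 were detected, with medians of 10.00 and 9.19 on the endothelial sham and TAC arrays and 6.68 to 7.52 on the fibroblast arrays. Between the endothelial arrays their median difference was -1.09, with 1 marker higher after TAC. The 9 mural markers had medians of 10.09 and 9.54 on the endothelial arrays and 8.44 to 9.42 on the fibroblast arrays. The part of these transcripts in the comparisons was not tested. In sorted bulk RNA, more cells of a type and more RNA per cell cannot be told apart. The T-cell, B-cell and plasma cell genes Cd3e, Cd79a, Jchain and Mzb1 were not detected. Sdc1, from the same marker list, was detected and stood higher after TAC in each population. It measured 9.19 and 9.82 in traced and untraced sham fibroblasts, 10.98 and 11.32 after TAC, and 6.85 and 8.47 in sham and TAC endothelial cells. Of 10 macrophage markers 8 were detected, all but Adgre1 and Ptprc, with medians of at least 6.86 on the fibroblast arrays, 6.54 on the endothelial sham array and 7.56 on the endothelial TAC array. All 8 were higher in endothelial cells after TAC, with a median difference of 0.83. In both fibroblast populations 5 of the 8 were lower after TAC and 3 higher. Cx3cr1 measured 9.94 and 9.09 in sham fibroblasts and 8.39 and 7.16 after TAC, whereas Csf1r was higher by 1.44 and 0.96. The untraced TAC array stood apart in 18S ribosomal RNA control probes, at a mean of 12.04 against 14.11 to 14.64 on the other arrays. TAC values of single members are therefore given for traced and untraced fibroblasts separately.

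Several members carry known response elements in their promoters, which are shown because those elements define the classical targets of the pathway. RefSeq promoter sequences (GRCm38.p6, 250 bases before to 50 after the start site) were matched by symbol for 31 of the 38 genes. Both strands were searched for the ER stress response element ERSE (CCAAT and CCACG with 9 bases between them), for ERSE-II (ATTGG and CCACG with 1 base between them) and for the XBP1 element UPRE (TGACGTGG). All 3 overlap the short core CCACG or its reverse complement CGTGG. Hspa5 (chr2:34771840-34772139, plus strand) and Creld2 (chr15:88819396-88819695, plus strand) are printed with their ERSE in capitals, and Sec24d (chr3:123267246-123267545, plus strand) with its UPRE in capitals. Sdf2l1 (chr16:17132334-17132633, minus strand) held none of these longer elements, and its 3 short cores are in capitals.
Hspa5: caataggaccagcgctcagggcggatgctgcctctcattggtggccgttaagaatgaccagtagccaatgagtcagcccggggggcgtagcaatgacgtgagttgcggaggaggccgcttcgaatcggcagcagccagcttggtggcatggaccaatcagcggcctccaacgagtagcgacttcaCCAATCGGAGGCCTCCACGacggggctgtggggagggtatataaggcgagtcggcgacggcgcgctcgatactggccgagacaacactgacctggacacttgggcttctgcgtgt
Creld2: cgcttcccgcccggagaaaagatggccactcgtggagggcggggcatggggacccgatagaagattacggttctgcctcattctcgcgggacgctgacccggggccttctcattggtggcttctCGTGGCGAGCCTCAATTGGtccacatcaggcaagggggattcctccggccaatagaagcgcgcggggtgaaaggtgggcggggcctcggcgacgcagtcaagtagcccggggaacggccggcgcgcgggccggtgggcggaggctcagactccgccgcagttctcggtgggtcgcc
Sec24d: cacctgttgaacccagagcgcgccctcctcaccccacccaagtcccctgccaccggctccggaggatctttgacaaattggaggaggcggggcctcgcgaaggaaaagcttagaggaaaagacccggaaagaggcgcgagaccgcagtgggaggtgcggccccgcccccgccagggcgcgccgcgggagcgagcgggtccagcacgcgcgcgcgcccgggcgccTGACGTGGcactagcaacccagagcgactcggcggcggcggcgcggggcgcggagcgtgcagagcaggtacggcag
Sdf2l1: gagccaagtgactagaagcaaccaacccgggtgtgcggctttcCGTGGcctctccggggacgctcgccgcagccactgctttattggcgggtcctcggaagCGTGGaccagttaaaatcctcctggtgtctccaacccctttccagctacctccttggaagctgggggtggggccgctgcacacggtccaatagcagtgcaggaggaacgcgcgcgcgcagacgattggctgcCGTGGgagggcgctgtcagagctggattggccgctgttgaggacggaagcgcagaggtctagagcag

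An ERSE was found in 9 of the 31 members against 37 of 27025 genes with a promoter (0.137%). The other 7 members with an ERSE are shown by the element alone, with its fixed letters in capitals, to let the spacing and orientation be compared. Hsp90b1 held 2, in opposite orientations. The first bases lay 212 and 107 bases before the start in Hsp90b1, 162 in Calr, 145 in Canx, 105 in Dnajc3, 98 in Pdia6, 44 in Syvn1 and 156 in Derl3. In Hspa5 it was 65, and in Creld2 126. The promoters lie at chr10:86705395-86705694 (Hsp90b1, minus strand), chr8:84846882-84847181 (Calr, minus), chr11:50325624-50325923 (Canx, minus), chr14:118937682-118937981 (Dnajc3, plus), chr12:17266339-17266638 (Pdia6, plus), chr19:6046326-6046625 (Syvn1, plus) and chr10:75893148-75893447 (Derl3, plus).
Hsp90b1 (1): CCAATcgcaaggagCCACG
Hsp90b1 (2): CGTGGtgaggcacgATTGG
Calr: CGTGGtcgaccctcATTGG
Canx: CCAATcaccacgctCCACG
Dnajc3: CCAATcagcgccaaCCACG
Pdia6: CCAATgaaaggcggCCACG
Syvn1: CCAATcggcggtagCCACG
Derl3: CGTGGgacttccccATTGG

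ERSE-II was present in 12 genes (0.0444%), of which 2 were members, Herpud1 and Dnajb11. The UPRE was present in 193 genes (0.714%), of which 2 were members, Sec24d and Sec23a, both encoding inner-coat proteins of the COPII vesicle. The short core alone was present in 24 of 31 members and in 35.5% of all genes with a promoter. Herpud1 (chr8:94386179-94386478, plus strand) and Dnajb11 (chr16:22857595-22857894, plus strand) are shown for their ERSE-II, with the fixed letters in capitals. A match is a description of the letters and not of a factor bound there.
Herpud1: ATTGGgCCACG
Dnajb11: ATTGGcCCACG

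After TAC, most chaperones stood lower in fibroblasts, most disulfide and prolyl isomerases and export genes stood slightly higher, and few of these differences were large. Members of a role went both ways, and differences between roles were not tested. At least 2-fold lower in both fibroblast populations was 1 of 36 members, Sdf2l1 (1.79% of all detected genes), and 0 were at least 2-fold higher (4.19%). At 1.5-fold, 3 were lower, Sdf2l1, Manf and Creld2 (4.79%), and 1 was higher, Fkbp14 (8.62%). Counting any size, 17 were lower in both populations (33.2%) and 13 higher (42.7%). The median difference over the members was -0.06 log2 in each fibroblast population, beside 0.07 in traced and 0.02 in untraced cells over all detected genes. On the same arrays all 12 endothelial markers were lower after TAC in both fibroblast populations, with a median of -0.58. Of 9 mural markers, 5 were lower in both by at least 1.5-fold and 2 higher by as much, with a median of -0.70. The 2 higher ones were Mcam, by 2.34 and 1.67, and Cspg4, by 0.61 and 0.83, in traced and untraced cells. Their part in the fibroblast values was not tested.

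**Figure D1:**
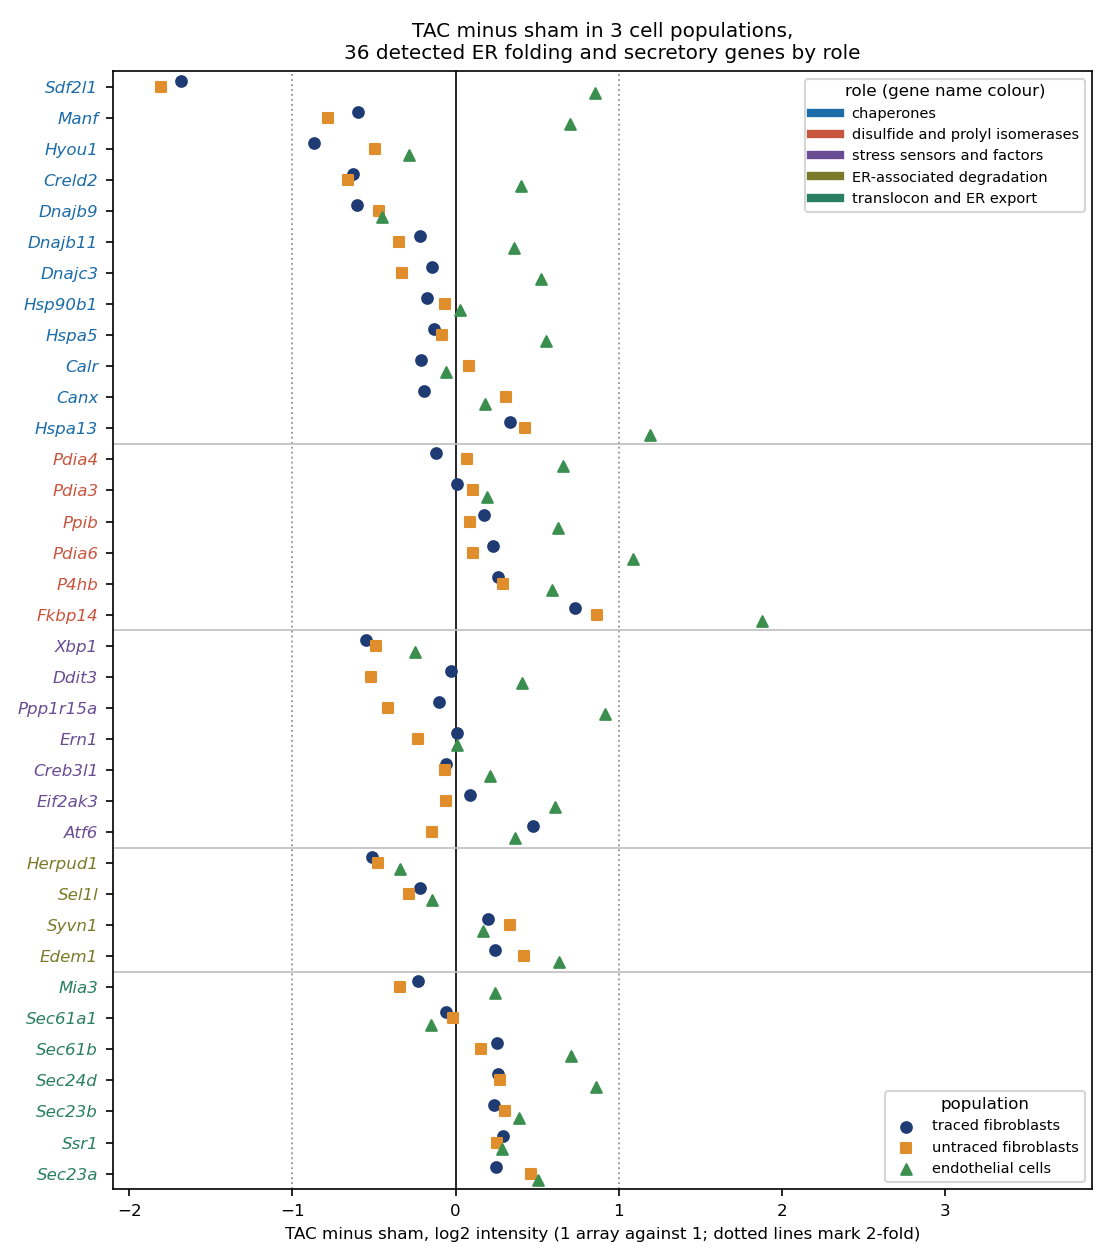
Difference between TAC and sham in log2 intensity (horizontal axis) for each of the 36 detected genes, ordered within role, in traced fibroblasts (circles), untraced fibroblasts (squares) and endothelial cells (triangles), with 1 array against 1 at each point. Sdf2l1 lies beyond the 2-fold line in both fibroblast populations, at -1.68 and -1.80, and to the right of 0 in endothelial cells, at 0.85.

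Of the 12 chaperones and cochaperones, 9 were lower in both fibroblast populations and 1 was higher, with medians of -0.21 in traced and -0.33 in untraced cells. Sdf2l1, a small partner of the ER Hsp70 chaperone, measured 10.90 and 11.11 log2 in traced and untraced sham fibroblasts, 9.22 and 9.31 after TAC, and 8.02 and 8.87 in sham and TAC endothelial cells. Both TAC fibroblast arrays thus lay well below both sham arrays, by 3.20-fold and 3.49-fold, and all 4 stayed above the endothelial arrays. Among the 12257 detected genes, 63 had a lower mean TAC difference in fibroblasts. In endothelial cells Sdf2l1 was 1.80-fold higher after TAC.

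Manf, a secreted ER-resident survival factor, measured 12.32 and 12.44 in sham fibroblasts, 11.72 and 11.66 after TAC, and 10.95 and 11.65 in sham and TAC endothelial cells. The fibroblast values were lower after TAC by 0.60 and 0.78 log2 and the endothelial value was higher by 0.70, and after TAC the endothelial value lay just under both fibroblast values. Creld2, an ER disulfide isomerase-like protein induced by ER stress, measured 11.97 and 12.22 in sham fibroblasts, 11.34 and 11.56 after TAC, and 10.49 and 10.89 in endothelial cells. Its fibroblast arrays separated by surgery, with differences of -0.63 and -0.66, and all lay above the endothelial pair. Sdf2l1 and Manf were the 2 members (0.734% of all genes) lower by 1.5-fold or more in both fibroblast populations and higher by as much in endothelial cells.

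Hyou1, a large ER Hsp70-type chaperone and nucleotide exchange factor, measured 11.92 and 11.79 in sham fibroblasts, 11.05 and 11.30 after TAC, and 11.26 and 10.97 in endothelial cells. With the probe set used, Hyou1 was lower after TAC on all pairs of arrays, and its fibroblast and endothelial levels overlapped. Its 3 detected probe sets gave mean fibroblast differences of -1.06 to -0.68 and endothelial differences of -0.29 to 0.76. Dnajb9, a J-domain cofactor that recruits Hspa5, was lower by 0.60, 0.47 and 0.45 in traced fibroblasts, untraced fibroblasts and endothelial cells. Dnajc3, a J-domain inhibitor of PERK, differed by -0.14 and -0.33 in fibroblasts and by 0.53 in endothelial cells. Its 5 probe sets were all lower in both fibroblast populations, but their endothelial differences ranged from -0.24 to 0.53.

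Other folding chaperones showed smaller fibroblast differences. Hspa5 (BiP), the master ER chaperone that also holds the stress sensors inactive, measured 13.38 and 13.49 in sham fibroblasts, 13.25 and 13.41 after TAC, and 12.33 and 12.88 in endothelial cells. The fibroblast differences were -0.13 and -0.08, with all 4 arrays above the endothelial pair, whereas the endothelial difference was 0.55. Hsp90b1 (GRP94), the ER member of the Hsp90 family, differed by -0.18, -0.06 and 0.03 in traced fibroblasts, untraced fibroblasts and endothelial cells. The lectin chaperones Calr and Canx, which hold newly glycosylated proteins, had opposite signs in traced and untraced fibroblasts, at -0.21 and 0.08 for Calr and at -0.19 and 0.31 for Canx. Dnajb11, a further Hspa5 cofactor, differed by -0.21 and -0.34 in fibroblasts and 0.36 in endothelial cells. With the probe set used, Hspa13, an atypical Hsp70 of microsomes, was the chaperone higher in both fibroblast populations, at 0.34 and 0.42. It was 1.19 higher in endothelial cells. Of its 4 detected probe sets, 2 were higher and 1 was lower in both fibroblast populations.

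Among the 6 detected disulfide and prolyl isomerases, 0 were lower in both fibroblast populations and 5 were higher, with medians of 0.20 in traced and 0.11 in untraced cells. Fkbp14, a prolyl isomerase that assists procollagen folding, measured 10.46 and 10.77 in sham fibroblasts, 11.19 and 11.64 after TAC, and 7.45 and 9.33 in sham and TAC endothelial cells. It was 1.66-fold and 1.83-fold higher in TAC fibroblasts, with the TAC arrays above both sham arrays, and 3.67-fold higher in endothelial cells. P4hb, which is both a disulfide isomerase and the beta subunit of prolyl 4-hydroxylase, was higher by 0.26 and 0.29. Ppib, cyclophilin B, which pairs with the collagen prolyl 3-hydroxylation complex, was higher by 0.18 and 0.09. Pdia6 and Pdia3, disulfide isomerases of which Pdia3 works with the lectin chaperones, differed by 0.23 and 0.11 and by 0.01 and 0.11. The other detected probe set of Pdia6 differed by -0.004 and -0.26. Pdia4, a further disulfide isomerase, differed by -0.12 in traced and 0.07 in untraced fibroblasts.

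Of the 7 sensors and factors, 4 were lower in both fibroblast populations and 0 higher, with medians of -0.02 in traced and -0.23 in untraced cells. Xbp1, the transcription factor whose mRNA is spliced by IRE1, measured 12.15 and 12.10 in sham fibroblasts, 11.61 and 11.61 after TAC, and 11.47 and 11.23 in endothelial cells. The TAC fibroblast arrays were below both sham arrays, by 0.55 and 0.48, and its 4 probe sets ranged from -0.60 to -0.40. The values used here do not separate spliced from unspliced Xbp1. With the probe sets used, the sensors themselves showed small differences in fibroblasts. These were 0.01 and -0.23 for Ern1 (IRE1), 0.09 and -0.06 for Eif2ak3 (PERK), and 0.48 and -0.14 for Atf6. Over 3 detected probe sets each, mean fibroblast differences ranged from -0.67 to -0.10 for Ern1 and from -0.40 to 0.53 for Eif2ak3. Ddit3 (CHOP), a stress-induced transcription factor, and Ppp1r15a (GADD34), which restores translation, differed by -0.02 and -0.52 and by -0.10 and -0.41. Creb3l1 (OASIS), an ER-anchored factor that drives collagen genes in bone, differed by -0.06 in both. The 2 detected probe sets of Ddit3 had opposite signs, with mean fibroblast differences of -0.27 and 0.77, so its direction is uncertain.

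In ER-associated degradation, 2 of 4 genes were lower in both fibroblast populations and 2 were higher. Herpud1, a scaffold of the degradation complex, measured 11.40 and 11.49 in sham fibroblasts, 10.89 and 11.01 after TAC, and 10.28 and 9.94 in endothelial cells. The fibroblast arrays separated by surgery, with differences of -0.51 and -0.47 from 1 probe set, and of -0.49 and -0.39 as means over both populations for its 2 probe sets. Sel1l, the adaptor of the ubiquitin ligase Syvn1 (HRD1), was lower by 0.22 and 0.28, and Syvn1 itself was higher by 0.20 and 0.33. Edem1, which hands misfolded glycoproteins to degradation, was higher by 0.24 and 0.42, but its 2 probe sets differed in sign, with means of 0.33 and -0.19.

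Among the 7 translocon and export genes, 5 were higher in both fibroblast populations and 2 lower, with a median of 0.25 in each population. Sec23a measured 11.13 and 11.16 in sham fibroblasts, 11.38 and 11.63 after TAC, and 9.57 and 10.08 in endothelial cells, so the TAC arrays lay above the sham arrays by 0.25 and 0.46. Sec24d, the cargo-selecting COPII protein, was higher by 0.26 and 0.27, and Sec23b, the paralogue of Sec23a, by 0.24 and 0.30. Ssr1 and Sec61b, of the translocon through which chains enter the ER, were higher by 0.29 and 0.25 and by 0.26 and 0.16. Sec61a1, the pore subunit, differed by -0.06 and -0.02. Mia3 (TANGO1), which loads bulky collagen cargo at ER exit sites, was lower by 0.23 and 0.34 with the probe set used. Its 4 detected probe sets gave mean fibroblast differences of -0.29 to 0.10, and 2 of them were lower in both populations.

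**Figure D2:**
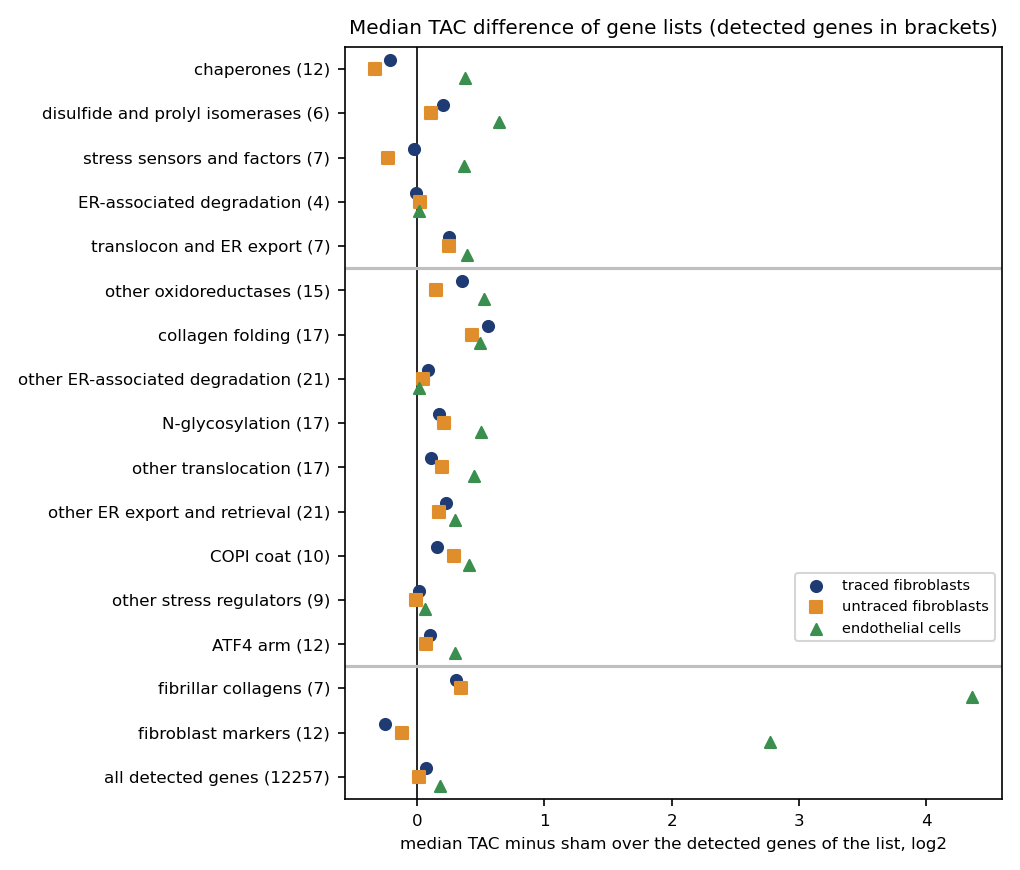
Median difference between TAC and sham in log2 intensity (horizontal axis) of each gene list in traced fibroblasts, untraced fibroblasts and endothelial cells, with 1 array against 1 in each. Chaperones lie to the left of 0 in both fibroblast populations, at -0.21 and -0.33, and collagen folding genes to the right, at 0.56 and 0.43.

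Whether the elements in the promoters went with direction was described over the detected genes. The 8 detected members with an ERSE had median TAC differences of -0.16 in traced and 0.01 in untraced fibroblasts, with 4 lower and 2 higher in both populations. The 18 members with none of the 3 elements had medians of 0.01 and 0.00, with 7 lower and 8 higher. Both ERSE-II members were lower in both populations and both UPRE members higher. The 6 other detected ERSE-II genes had medians of -0.02 and 0.08, with 2 lower and 3 higher in both populations, and the 104 other UPRE genes 0.13 and -0.01, with 35 lower and 46 higher. The 7 other detected genes with an ERSE had medians of 0.34 and 0.21, with 3 lower and 4 higher.

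Of 145 further genes of the same pathways, listed by function but with earlier results of these data known, 139 were detected. In both fibroblast populations 89 (64.0%) were higher and 28 (20.1%) lower after TAC at any size, beside 42.7% and 33.2% of all genes. At 1.5-fold 11 (7.91%) were higher and 4 (2.88%) lower, beside 8.62% and 4.79%. The medians were 0.15 in traced and 0.17 in untraced cells. Collagen folding enzymes had medians of 0.56 and 0.43 in the 2 populations, with 14 of 17 higher in both populations. P4ha3, a catalytic subunit of prolyl 4-hydroxylase, was higher by 3.40 and 3.92, and Plod2, the lysyl hydroxylase of collagen telopeptides, by 1.67 and 1.65. Fkbp11, an ER prolyl isomerase, was higher by 1.25 and 0.99. The 15 other oxidoreductases had medians of 0.36 and 0.15. Among them, Pdia5 was higher by 1.19 and 1.14, Prdx4 by 0.71 and 0.99, and Ero1a, the oxidase that supplies disulfides, by 0.65 and 0.63.

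As means of both populations, the 21 other ER-associated degradation genes had a median of 0.00, with Rnf5 at -0.29 and -0.88 in the traced and untraced populations. The 17 N-glycosylation genes had a median of 0.21, with Ddost at 0.50 and 0.51 and Magt1, in the other direction, at -0.52 and -0.43. The 17 other translocation genes had a median of 0.15, with Ssr2 at 0.55 and 0.47. The 21 other export and retrieval genes had a median of 0.20, with 15 higher and 1 lower in both populations, and the KDEL receptor gene Kdelr3, whose product returns chaperones to the ER, was higher by 0.62 and 0.51. The 10 COPI coat genes had a median of 0.19, with Copz2 at 0.53 and 0.38.

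Regulators outside the 38 did not share a direction. Of 12 detected ATF4-arm genes, 2 were lower and 6 higher in both fibroblast populations, with medians of 0.10 in traced and 0.07 in untraced cells. The 2 lower ones were Trib3, a pseudokinase induced downstream of ATF4 and CHOP, by 1.25 and 1.13, and Vldlr, by 1.12 and 0.94. Chac1, a glutathione-degrading enzyme, was higher by 1.59 and 1.35 from fibroblast levels below the array medians at sham. Of 9 other stress regulators, Txnip was lower by 0.67 and 0.65 and Creb3l2, the relative of Creb3l1, higher by 0.48 and 0.41. Beside these, 11 cytosolic heat shock genes had a median of -0.02 and 15 immediate early genes a median of 0.05 in fibroblasts. Their part in the ER results was not tested.

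Tests of TAC that treat the populations as replicates were added after these values had been seen. With limma on the 4 fibroblast arrays and lineage as a block (1 residual degree of freedom), 1 of 36 members was lower at an adjusted p under 0.05 and at least 2-fold (2.51% of all genes) and 0 were higher (5.07%). That member was Sdf2l1 (-1.74 log2, SE 0.127, adjusted p = 0.000265). Without the fold minimum 7 members were lower (9.81%) and 1 was higher (15.6%). The others lower were Manf, Creld2, Hyou1, Dnajb9, Xbp1 and Herpud1, with adjusted p of 0.0115 to 0.0315, and Fkbp14 was the higher one (0.00597), all by limma. These p-values are too small where traced and untraced arrays of a surgery share mice. With all 6 arrays and population as a block, limma called 0 members lower (0.286%) and 0 higher (2.36%) at an adjusted p under 0.05 and at least 2-fold. At an unadjusted p under 0.05 the limma counts were 4 lower (11.1% of members) and 5 higher (13.9%). The shares of all genes were 7.73% and 17.1%.

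**Figure D3:**
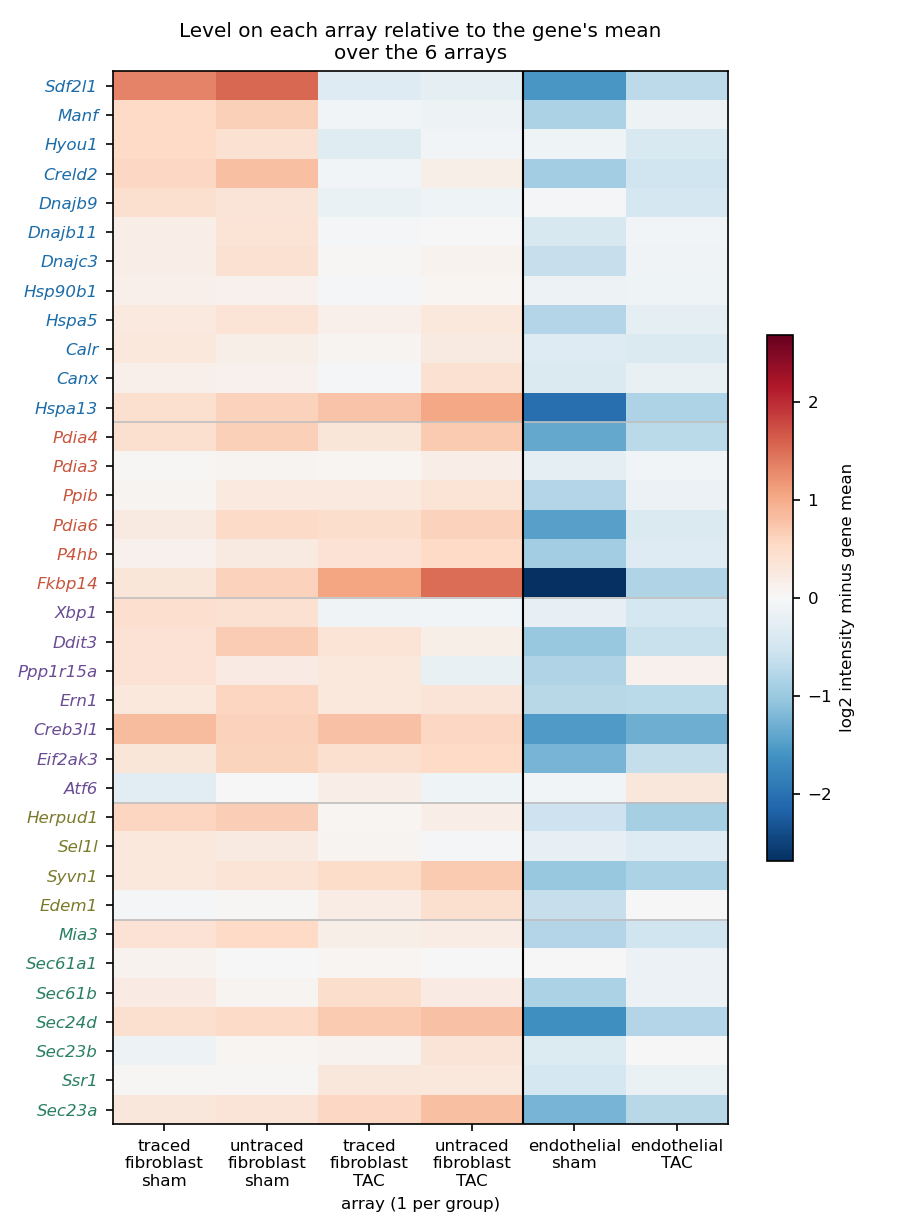
Log2 intensity of the detected genes (rows, grouped by role) on each of the 6 arrays, shown relative to the gene's own mean, because levels of different probe sets cannot be compared. Fkbp14 and Hspa13 are darkest on the endothelial sham array, where Fkbp14 measured 7.45 and Hspa13 7.52.

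In endothelial cells most members stood higher after TAC, on the same array on which the fibroblast markers stood higher. Of 36 members, 29 were higher at any size (63.0% of all genes), 13 by at least 1.5-fold (24.7%) and 3 by at least 2-fold (10.9%): Hspa13, Pdia6 and Fkbp14. At 1.5-fold 0 were lower (7.42%) and at 2-fold 0 (1.73%). The median was 0.39 log2 beside 0.18 over all genes. With quantile normalization these medians were 0.25 and 0.07, and Ern1 and Syvn1 turned to -0.16 and -0.01.

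Hspa13 measured 7.52 on the endothelial sham array and 8.71 after TAC, and Pdia6 10.11 and 11.19. Both stayed below the fibroblast arrays, which measured 9.98 to 10.60 for Hspa13 and 11.81 to 12.20 for Pdia6. Ppp1r15a was higher by 0.91, Sec24d by 0.86, Sec61b by 0.71, Pdia4 by 0.66, Edem1 by 0.63, Ppib by 0.63, Eif2ak3 by 0.61 and P4hb by 0.59. The median over 12 fibroblast markers was 2.78 and over 7 fibrillar collagens 4.36 on the same pair of arrays, and the part of these transcripts in the endothelial values was not tested. As means over all probe sets of a gene, dim ones included, 0 members were at least 2-fold higher. Over detected probe sets, the endothelial differences ranged from 0.10 to 1.19 for Hspa13 and from 0.14 to 1.09 for Pdia6.

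In all 3 populations, 6 members were lower after TAC (18.0% of all genes): Hyou1, Dnajb9, Xbp1, Herpud1, Sel1l and Sec61a1. With the probe sets used, their endothelial differences were -0.29, -0.45, -0.25, -0.34, -0.14 and -0.15. Over all detected probe sets of the gene, the endothelial differences ranged from -0.34 to 0.22 for Herpud1 and from -0.29 to 0.56 for Sel1l. For Xbp1 they ranged from -0.45 to -0.04. The fibroblast markers were higher on the same pair of arrays, and their part in these values was not tested. For Sec61a1 the fibroblast mean turned from -0.04 to 0.00 with quantile normalization. For Hyou1 and Sec61a1 the endothelial difference was 0.10 and 0.33 as a mean over probe sets. Higher in all 3 populations were 13 members (33.9%), and 11 were lower in both fibroblast populations and higher in endothelial cells (15.2%). Across the 36 members the TAC differences of traced and untraced fibroblasts, which come from separate arrays, had a Pearson r of 0.89, beside 0.86 over the other genes, as a description.

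**Figure D4:**
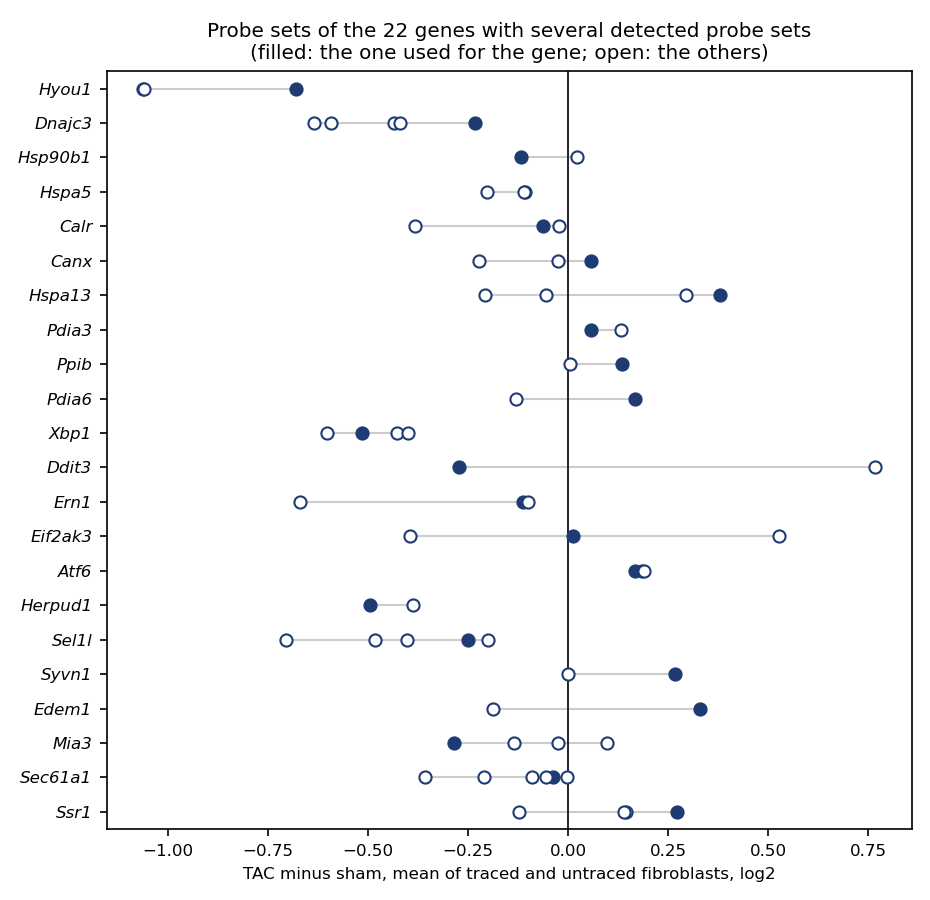
Mean fibroblast difference between TAC and sham in log2 intensity (horizontal axis) for every detected probe set of the 22 members with several. All probe sets of Hyou1, Dnajc3, Xbp1 and Herpud1 lie left of 0. On this mean, so do those of Calr, Ern1, Hspa5, Sec61a1 and Sel1l. Those of Ddit3 lie on both sides, at -0.27 and 0.77.

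Probe sets of the same gene can read different transcript ends. Of 22 members with several detected probe sets, all were lower in both fibroblast populations for 4, Hyou1, Dnajc3, Xbp1 and Herpud1, and all were higher for 1, Pdia3. For the other 17 they did not take 1 direction in both populations, among them Eif2ak3, with means from -0.40 to 0.53. Sdf2l1, Manf, Creld2 and Fkbp14 were not among the 22, and for Fkbp14 the mean with its dim probe sets was 0.53 in fibroblasts and 0.91 in endothelial cells.

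The cell types could be compared with a test, and the members that passed it, spread over all 5 roles, were all higher in fibroblasts. With limma on 2 values per cell type, the traced and untraced arrays of a surgery being averaged, 9 of 36 members were higher in fibroblasts at a Benjamini-Hochberg adjusted p under 0.05 and at least 2-fold (11.5% of all genes), and 0 were higher in endothelial cells (6.50%). At an unadjusted p under 0.05 the limma counts were 16 and 0, beside 24.0% and 11.6% of all genes. Since the labels name no separate cultures or animals, these p-values reflect only the spread between the values at hand, that is, between surgeries. All 4 fibroblast arrays lay above both endothelial arrays for 29 members (37.8%), and above the endothelial sham array for 32 (53.1%), while 0 had all 4 below both (19.9%). At both surgeries the fibroblast value was the higher for 34 members (51.6%). Without the 2-fold minimum the calls were also 9 and 0 (11.6% and 6.56%). The median difference was 0.75 log2, beside 0.22 over all genes.

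Creb3l1 had the lowest adjusted p of the members. It measured 11.69 and 11.48 in sham fibroblasts, 11.63 and 11.41 after TAC, and 9.34 and 9.55 in endothelial cells, a 4.32-fold difference (2.11 log2, SE 0.226, limma adjusted p = 0.0101). Its 4 fibroblast arrays lay close together and well above the endothelial pair at both surgeries. Hspa13 was 4.44-fold higher (adjusted p = 0.0430, limma).

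The other calls fell in several roles. Sec24d measured 11.49 and 11.56 in sham fibroblasts, 11.75 and 11.83 after TAC, and 9.41 and 10.27 in endothelial cells, and was 3.52-fold higher (limma adjusted p = 0.0364). Sec23a was 2.83-fold higher (adjusted p = 0.0345, limma), so that both UPRE members were called. Pdia4 was 2.96-fold higher (adjusted p = 0.0338) and Syvn1 2.62-fold (0.0257), both by limma. Without cross-hybridising probe sets Syvn1 lost its call, at 1.13 log2 (limma adjusted p = 0.0649). The sensors Eif2ak3 and Ern1 and the factor Ddit3 were 2.67-fold (limma adjusted p = 0.0386), 2.15-fold (0.0345) and 2.32-fold (0.0454) higher. With the mean of all probe sets these 3 lost their calls, at 0.60, 0.38 and 1.05 log2 (limma adjusted p = 0.104, 0.285 and 0.123), as did Pdia4, at 0.88.

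Fkbp14 had the largest fibroblast to endothelial difference of the members, 2.62 log2 or 6.15-fold, but did not pass (SE 0.707, limma adjusted p = 0.0698). The values of Sdf2l1, 1.69 log2 (SE 0.675), and Pdia6, 1.38 (SE 0.422), had limma adjusted p of 0.155 and 0.0903. At the other end were Hsp90b1 at 0.19 log2, Sec61a1 at 0.12 and Atf6 at -0.17, none of which passed. Leaving out the fibroblast sham or the fibroblast TAC value left 0 calls among the members, and leaving out the endothelial sham value left 1, Creb3l1.

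Among the 139 further pathway genes 22 (15.8%) were called higher in fibroblasts and 0 in endothelial cells by limma, beside 11.5% and 6.50% of all genes. P3h3, a collagen prolyl 3-hydroxylase, differed by 4.01 log2 (adjusted p = 0.0370), Kdelr3 by 3.64 (0.0300), Txndc5 by 2.55 (0.0185) and Selenos, a degradation factor, by 2.38 (0.0127), all by limma. Tmed3, a cargo receptor of early secretory vesicles, differed by 2.0 (limma adjusted p = 0.0228). Creb3l2 and Mbtps1, the protease that activates ATF6 and the Creb3l factors, differed by 1.49 and 1.46 (limma adjusted p = 0.0312 and 0.0263).

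With the probe sets used, the fibroblast minus endothelial difference was lower after TAC for 34 of 36 members (61.7% of all genes), all but Syvn1 and Sec61a1. Its absolute size was smaller for 33 (63.3%), since Atf6 went from -0.07 to -0.27. Both exceptions depend on the probe set. The other Syvn1 probe set had TAC differences of -0.0002 in fibroblasts, as a mean, and 0.61 in endothelial cells. The 6 detected Sec61a1 probe sets ranged from -0.36 to -0.003 in fibroblasts and from -0.23 to 0.72 in endothelial cells. At sham 20 members were at least 2-fold above endothelial cells (23.3%) and after TAC 10 (17.6%). Of the 20, 19 had a smaller gap after TAC, beside 86.1% of the 2856 genes past the same fold at sham. Sdf2l1 went from 2.99 to 0.40, Manf from 1.43 to 0.04 and Creld2 from 1.61 to 0.57, whereas Creb3l1 went from 2.25 to 1.98. The 12 fibroblast markers went from a median of 5.0 to 2.25 on the same arrays, and their part in the narrowing was not tested.

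**Figure D5:**
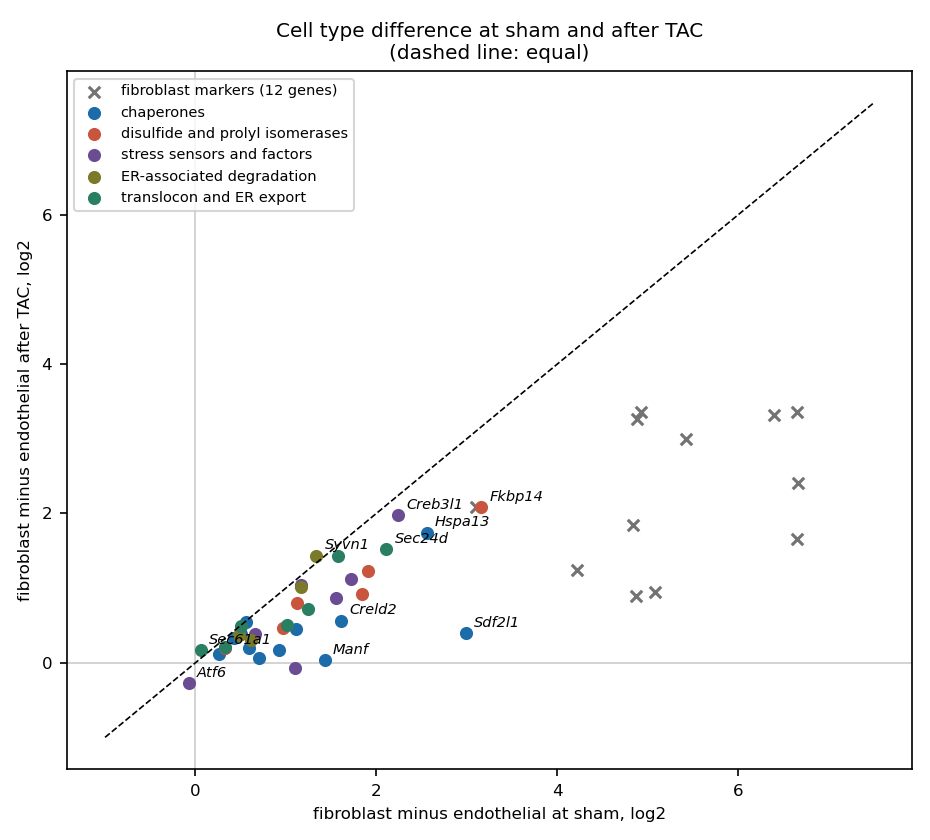
Difference between fibroblasts and endothelial cells in log2 intensity at sham (horizontal axis) and after TAC (vertical axis) for each member, with colours for role, and for 12 fibroblast markers (crosses). Points below the dashed line of equality had a smaller difference after TAC, as Sdf2l1 did at 2.99 and 0.40. With the probe set used, Syvn1 lies above that line at 1.34 and 1.44.

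Traced and untraced fibroblasts differed by less than 1.5-fold for every detected member at either surgery. At both 2-fold (0.0326% of all genes higher and 0.0408% lower) and 1.5-fold (0.359% and 0.351%), 0 members differed in the same direction at both surgeries. Single differences ranged from -0.47 to 0.47 log2. At any size, 21 members were lower in traced cells at both surgeries (46.1%) and 5 were higher (17.4%): Ppp1r15a, Creb3l1, Sel1l, Sec61a1 and Sec61b. All genes had medians of -0.11 at sham and -0.07 after TAC, and relative to these medians 10 of 36 members were lower at both surgeries, beside 30.6% of all genes. By limma with surgery as a block, added after the values had been seen, 0 members were called higher (0.00% of all genes) or lower (0.00%). At an unadjusted p under 0.05 the limma counts were 0 higher and 1 lower (2.78% of members), beside 3.74% and 11.2% of all genes. Fkbp14 was lower in traced cells by 0.31 at sham and 0.44 after TAC, and Ppp1r15a was higher by 0.16 and 0.47.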

How the data were processed

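The authors deposited 1 table of intensity values for 45101 probe sets on 6 arrays; per the submitters' processing notes they were made with RMA, of a version not given in the sources used here. Deposited intensities are on a linear scale and were converted here to log2. Probe sets with exactly 1 symbol were kept (34958), and the brightest on average stood for its gene; array medians were 107 to 115 in intensity. The cell type comparison used lmFit and eBayes of limma 3.58.1 under R 4.3.3 (2 residual degrees of freedom), fitted on all 12257 detected genes with Benjamini-Hochberg adjustment, after testing on simulated data. TAC and lineage differences are 1 array against 1. Fits with lineage, population or surgery as a block were added after the values had been seen. All members were given; other genes were those with the largest mean TAC difference (up to 3) or cell type difference (up to 2) of each pathway list, and some of these were left out for length. The members and lists were chosen with earlier results of these data known. Alternatives were the mean of all probe sets, no cross-hybridising probe sets, other detection filters, quantile normalization, an offset of 32, surgery as a block, 1 fibroblast population, and leaving out each value. The number of arrays limits the precision.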

Additional observations from a re-analysis of the deposited data

Results flagged for a closer look

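Sdf2l1 moved in opposite directions after TAC in the 2 cell types: it differed by -1.68 log2 in traced and -1.80 in untraced fibroblasts and by 0.85 in endothelial cells. Manf did the same, at -0.60, -0.78 and 0.70. Each value is 1 array against 1, and the difference between the cell types was not tested. Both genes had 1 detected probe set, so no other probe set of the same gene was available for comparison. The median over the 12 fibroblast markers differed by 2.78 between the endothelial arrays in the same direction, and its part in the endothelial values was not tested.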

How the results depend on the processing

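Of the comparisons summarised over the members, 105 recalculations stayed within the limits set for them and 9 moved. The count of 9 members higher in fibroblasts ranged from 0 to 10 when each value was left out in turn, being 0 without the fibroblast sham or the fibroblast TAC value, 1 without the endothelial sham value and 10 without the endothelial TAC value. It was 12 with surgery as a block, where Pdia6, Fkbp14 and Herpud1 also passed, and 6 with the mean of all probe sets. The median fibroblast minus endothelial difference of 0.75 ranged from 0.59 to 1.04 when each value was left out. Creb3l1 kept its call in 11 of 13 alternatives. At 1.5-fold instead of 2-fold, the members lower in both TAC fibroblast populations were 3 instead of 1 and those higher 1 instead of 0, and those higher in TAC endothelial cells were 13 instead of 3. The 2-fold count of 3 in TAC endothelial cells was 0 with the mean of all probe sets. Chosen after seeing the data, limma with population as a block called 0 members lower after TAC instead of 1, and with lineage as a block 1. The fibroblast minus endothelial difference reversed for Atf6, to 0.53 with the mean of all probe sets and, with each value left out, from -0.35 to 0.011 (the latter without the endothelial TAC value), and for Canx, to -0.082 without cross-hybridising probe sets; the cause was not tested. Leaving out the endothelial TAC array, chosen after seeing the data, moved the members with all 4 fibroblast arrays above the endothelial arrays from 29 to 32. By replicate number, no pairing exists. No paired analysis was possible because all labels carry the same number, 1; surgery as a block pairs the cell types within a surgery instead. Fkbp14, Hspa13 and Ern1 lay at percentiles 58.8, 59.7 and 62.3 of all probe sets on their dimmest array, where signal over background limits a difference. With 1 array a group, the spread within a condition is unknown.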
